A study of Mus musculus with 57 samples.

Results

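Imprinted genes are expressed mainly or wholly from the copy inherited from 1 parent, and 43 of them were followed here through 7 embryonic mouse tissues and stages, called contexts, in wild-type (wt) and *Hoxa5*-/- embryos. They were picked by name as well-established imprinted genes of the mouse, and all 43 were found among the 56860 genes of the deposited tables. By textbook knowledge 26 of them are classed as expressed from the paternal copy and 17 as expressed from the maternal copy. These classes were given per gene and not per tissue, and whether they hold in the contexts sampled here was not measured. The reads were counted per gene and not per parental copy, so that the data show how much RNA each gene made and not from which copy it came.

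The RNA was from lung and somites, each at an earlier and a later embryonic day (E12.5 and E15.5 for lung, E10.5 and E12.5 for somites), from trachea and diaphragm at E15.5, and from the brown adipose tissue between the shoulder blades (iBAT) at E18.5. What is called somites here is embryonic trunk tissue at the level of C3 to T2, taken without the forelimbs, neural tube or organs of the chest. All embryos, controls included, were of the 129/Sv background, and the mutants carried 2 copies of a null allele made by placing a neomycin cassette in the homeobox of *Hoxa5*, a transcription factor gene of the *HoxA* cluster. Since the insertion leaves exon sequence in place, *Hoxa5* reads could still be counted in mutants. Each context had 4 wt and 4 *Hoxa5*-/- libraries, except for somites at E10.5 with 4 and 3 and iBAT with 5 and 5, which makes 57 libraries of polyA-selected RNA. Libraries of a group were biological replicates from different embryos by the study's methods, and which of them shared a litter is not given in the sources used here. Trachea, lung and diaphragm (32 libraries) were read as single-end reads of 100 bases at 1 centre and somites and iBAT (25 libraries) as paired-end reads of 150 bases at another, so that tissue and centre cannot be told apart between these sets. The depth was between 18369905 and 72991481 counted reads per library. Wherever p-values are given, they measure the spread between these libraries.

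Imprinting is set in the germ line, where stretches of CpG dinucleotides are methylated on the maternal or the paternal chromosome and keep that mark in the embryo. Many imprinted genes lie in clusters, here called domains, in which a methylated control region and often a long non-coding RNA hold protein-coding neighbours silent on 1 chromosome. As a group they are known for the control of fetal growth, placental function and the supply of muscle and fat precursors, with paternally expressed genes such as *Igf2* tending to promote growth and maternally expressed genes such as *Cdkn1c*, *Grb10* and *Igf2r* tending to restrain it. Most are also known to be shut down in many organs after birth.

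Several of these genes hold microRNAs, short RNAs that bind messengers through the seed at bases 2 to 8. *H19*, a long non-coding RNA, was counted over exon bases that include the hairpin of miR-675, read from the same strand of chromosome 7 (GRCm39). *Rtl1*, a protein-coding gene derived from a retrotransposon, lies on the minus strand of chromosome 12, and 6 microRNA genes are read from the plus strand within its exons. Of the *Rtl1* exon bases 8.399% and of the *H19* exon bases 8.57% were shared with other annotated genes. Mature sequences of miR-675 and of 5 of these 6 microRNAs, from the RefSeq table of build GRCm38.p6 and found again by sequence in GRCm39, are shown since both hosts recur below, with the seed in capitals. No seed is shared by any of these 7 sequences.
mmu-miR-675-5p: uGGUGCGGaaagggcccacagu
mmu-miR-675-3p: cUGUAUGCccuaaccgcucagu
mmu-miR-127-3p: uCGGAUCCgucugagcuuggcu
mmu-miR-136-5p: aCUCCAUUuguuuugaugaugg
mmu-miR-431-5p: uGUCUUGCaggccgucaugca
mmu-miR-433-3p: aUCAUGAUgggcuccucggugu
mmu-miR-434-3p: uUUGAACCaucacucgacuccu

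Another kind of neighbourhood was that of genes that start back to back. *Peg10*, derived from a retrotransposon, and *Sgce*, which encodes epsilon-sarcoglycan of the muscle membrane complex, leave a gap of 98 bases between their annotated starts on chromosome 6. *Usp29*, of the ubiquitin protease family, and *Peg3*, which encodes a zinc finger protein, leave a gap of 146 bases on chromosome 7. Both gaps are printed below from the plus strand of GRCm39 with the CpG dinucleotides (CG) in capitals, because the genes on either side are compared further on.
Sgce-Peg10 gap, chr6:4747208-4747305: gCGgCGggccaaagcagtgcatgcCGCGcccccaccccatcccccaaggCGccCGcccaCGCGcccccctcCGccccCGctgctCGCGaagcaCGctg
Peg3-Usp29 gap, chr7:6733431-6733576: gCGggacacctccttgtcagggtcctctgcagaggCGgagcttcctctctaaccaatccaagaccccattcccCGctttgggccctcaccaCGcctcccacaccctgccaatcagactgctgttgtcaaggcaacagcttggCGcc
The *Sgce*-*Peg10* gap held 13 CG and the *Peg3*-*Usp29* gap 5 CG. A CG density at least as high was found in 3.9% and 41.4%, respectively, of 32851 RefSeq promoter windows around gene starts, whose median was 2.33 CG per 100 bases. The windows were not matched to the gaps in length, so that these shares are a description only.

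The labels were first checked with *Hoxa5* itself. Its level, in TPM (reads per exon length, scaled to a common sum, a unit that allows for gene length and depth), was higher in every wt library than in every *Hoxa5*-/- library of the same context. In lung at E12.5 the wt libraries had 233 to 304 TPM and the mutants 67.2 to 74.9 TPM. In iBAT they had 44.1 to 51.5 TPM and 9.84 to 16.2 TPM. The log2 fold change of *Hoxa5*-/- over wt was from -1.94 ± 0.12 (SE) in iBAT, with -1.94 ± 0.09 in lung at E12.5, to -0.92 ± 0.12 (SE) in somites at E10.5, and *Hoxa5* passed the test described below in all 7 contexts. In trachea (adjusted p 0.048) and somites at E10.5 (adjusted p 0.046) it stood close to the threshold. Leaving out any of the 8 trachea libraries ended its call there, with log2 fold changes of -1.85 to -1.57, and in somites at E10.5 it was kept without wt replicate 3 but ended without any of the other 6 libraries (-0.97 to -0.83), and also with library totals (-0.93).

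Markers of the labelled tissues were present. The summed TPM of 10 skeletal muscle genes was 30922 in wt diaphragm. That of 8 somite genes was 429 in wt somites at E10.5, and that of 8 brown adipocyte genes was 18060 in wt iBAT. Epithelial genes reached 6455 TPM in wt lung at E15.5 and cartilage genes 2023 TPM in wt trachea. RNA of other tissues was present too. Neuronal genes summed to 1482 TPM in wt somites at E10.5, which were taken without the neural tube. Hepatocyte genes summed to 2132, 2008, 11216 and 2441 TPM in the wt diaphragm libraries and to 2678, 474, 13687 and 11680 TPM in the mutants, and cardiac muscle genes to 4851 TPM in wt and 2650 TPM in *Hoxa5*-/- trachea. In trachea, mutant replicate 3 had 4648 TPM of skeletal muscle genes against 127 to 230 TPM in the other mutants and 308 to 1341 TPM in the wt libraries.

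The RNAs of these 43 genes made up a sizeable part of the messenger pool. Their summed TPM was 2.98 ± 0.25% (SD, n = 4) of the total in wt diaphragm, 2.38 ± 0.16% (n = 4) in trachea and 2.11 ± 0.17% (n = 4) in somites at E12.5. It was 1.18 ± 0.03% and 1.15 ± 0.11% (n = 4 each) in the earlier and later lung, 0.801 ± 0.085% (n = 4) in somites at E10.5 and 0.371 ± 0.050% (n = 5) in iBAT. *H19* alone accounted for 1.65% of the total in diaphragm and 0.215% in iBAT. A wt mean of 1 TPM or more was reached by all 43 genes in lung at E15.5, by 42 in trachea, by 41 each in lung at E12.5, diaphragm and somites at E12.5, by 38 in somites at E10.5 and by 37 in iBAT. Of all genes in the tables, between 26.2% and 32.9% reached that level in a context.

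*H19* was the most abundant of them in every context. Its wt libraries had 5545, 5346, 5351 and 5497 TPM in lung at E12.5, 18965, 16319, 13862 and 16664 TPM in diaphragm and 2569.9, 1962, 2273, 1654 and 2271 TPM in iBAT. The groups of diaphragm and iBAT did not overlap, and the lung libraries lay between them. By mean TPM *H19* ranked 2nd of all genes in trachea, 3rd in somites at E12.5, 4th in diaphragm and 46th in iBAT. *Mest*, which encodes a protein of the hydrolase family, was among the first 4 of the 43 in all 7 contexts, at 909 ± 44.5 TPM in lung at E15.5 and 1407 ± 43.4 TPM in somites at E12.5 (SD, n = 4). *Grb10*, an adaptor that dampens insulin receptor signalling, was second to *H19* in lung at E12.5 with 967 ± 45.5 TPM. The cell cycle inhibitor gene *Cdkn1c* was second in diaphragm with 2272 ± 159 TPM and in somites at E12.5 with 2479 ± 347 TPM. *Nnat*, which encodes a small membrane protein known from the nervous system, was second in somites at E10.5 with 1182 ± 153 TPM. *Dlk1*, a transmembrane ligand related to the Notch ligands and known to hold back fat cell maturation, was second in iBAT with 322 ± 53.4 TPM (SD, n = 5).

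**Figure D1:**
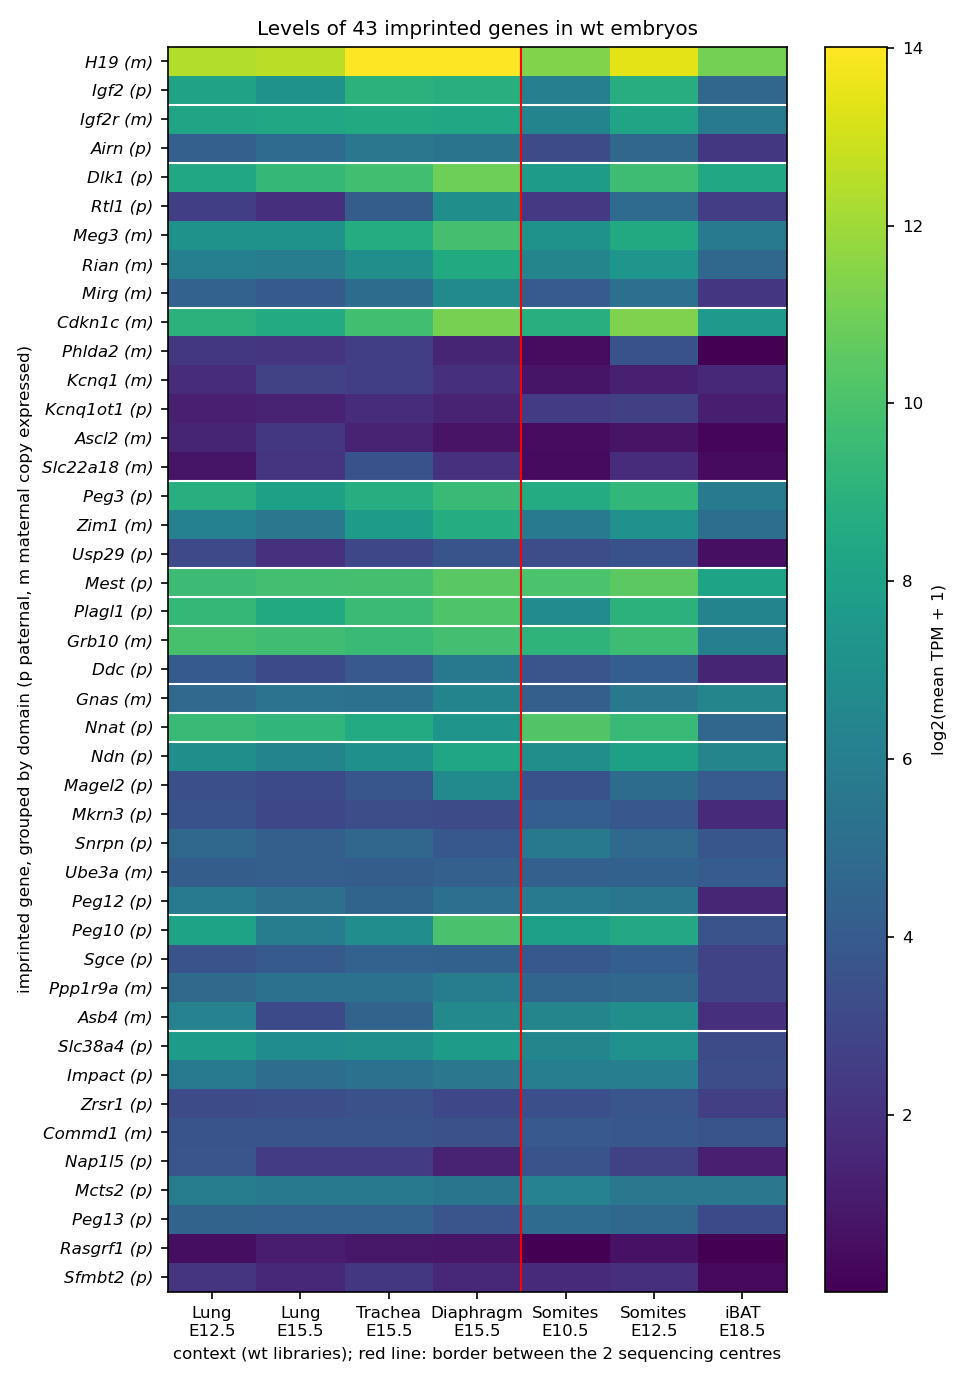
Mean wt level of the 43 imprinted genes as log2(TPM + 1) (colour), with genes in rows by domain and the 7 contexts in columns, where the red line parts the sets sequenced at different centres. *H19* is the brightest row throughout, and the iBAT column is the darkest for 35 of the 43 genes.

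Levels ranged widely between contexts for most of these genes. For 16 of them the highest wt mean in TPM was in diaphragm, for 7 each in somites at E10.5 and at E12.5, and for 6 in trachea, whereas for 35 the lowest was in iBAT. These counts set levels of separate centres side by side and depend on the scale. Among the somite and iBAT libraries alone the iBAT mean was the lowest for 38 of the 43 genes in TPM and for 27 in read counts scaled with TMM factors, by which the lowest mean of *H19* and *Igf2r* lay in somites at E10.5. *Peg10* had 91.8 times the mean TPM in diaphragm (937, 1053, 866 and 1150.5 TPM) as in iBAT (13.1, 10.1, 10.9, 9.98 and 10.4 TPM). *Nnat* spanned a 49.3-fold range in TPM from somites at E10.5 down to iBAT, and *Rtl1* a 44.0-fold range from diaphragm down to lung at E15.5. With TMM factors these ranges were 24.6-fold and 53.6-fold. At the other end in TPM, *Ube3a*, which encodes a ubiquitin ligase, varied 1.201-fold, *Commd1*, known for copper handling, 1.37-fold and *Mcts2*, a retrogene, 1.74-fold. With TMM factors these genes varied 1.78-fold, 1.89-fold and 2.096-fold among the somite and iBAT libraries alone, and were highest in iBAT, where their TPM was lowest. The median coefficient of variation of TPM between wt replicates of a context was 5.44% for *Ube3a*, 4.84% for *Commd1* and 9.34% for *Mcts2*.

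The level given to *Igf2*, the growth factor gene next to *H19*, depends on its annotation. Of its 5723 exon bases, 3694 are shared with other genes, 3596 of them with a readthrough gene on the same strand to which only 2 counts in all 57 libraries were assigned. The TPM was therefore also computed over the 2029 unshared bases, as if reads on shared bases had been given to neither gene, a step added after the data were seen, and this raised *Igf2* 2.82-fold. In lung at E12.5 *Igf2* then had 754 ± 56.9 TPM rather than 267 ± 20.2 TPM (SD, n = 4), against 294 ± 40.1 TPM of *Igf2r*, the receptor that carries IGF2 to the lysosome. The order of the ligand and this receptor was turned in the same way in lung at E15.5, somites at E10.5 and iBAT, while in trachea, diaphragm and somites at E12.5 *Igf2* was higher in mean by either length. The same factor was used for all libraries, so that comparisons of *Igf2* between them are not changed by this step. Whether the part of reads lost on shared bases differs between contexts was not tested. More than 20% of the exon bases were shared for 7 of the 43 genes, among them *Cdkn1c*, *Gnas* and *Ube3a*, and none for 24. Of the 64 overlaps 28 are with genes on the opposite strand, and whether the counting used the strand is not given in the sources used here.

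The following comparisons used the counts with the quasi-likelihood test of edgeR. Called genes are those with an adjusted p (Benjamini-Hochberg, over all genes tested) below 0.05 and a change of 1.5-fold or more, and a gene was tested when its mean reached 1 TPM in either group. TMM factors, by which edgeR scales libraries so that the bulk of genes stay level, were used throughout. The counts of imprinted genes are set beside the share of all tested genes that was called, as a description and not as a test of the list. As bulk tissue was measured, fewer cells of a type and less RNA per cell cannot be told apart.

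In wt lung, most of the imprinted genes that changed from E12.5 to E15.5 fell. Of the 43 genes tested 16 fell and 6 rose, together 51.2%, while 9.15% of all 18158 genes tested fell and 15.4% rose, together 24.6%. Of the falls, 14 were among genes classed as paternally expressed and 2 among those classed as maternally expressed, and the rises were 3 and 3. The median log2 fold change was -0.29 over the 43 genes and -0.01 over all genes. *Asb4*, of the ankyrin repeat and SOCS box family, had 75.6, 81.6, 60.9 and 81.0 TPM at E12.5 and 9.05, 6.55, 6.17 and 10.2 TPM at E15.5. Its neighbour *Peg10* had 299, 290.0, 249.8 and 268 TPM and 75.5, 55.1, 32.5 and 73.1 TPM. *Nap1l5*, related to nucleosome assembly proteins, had 10.4, 10.8, 14.8 and 11.8 TPM and 6.21, 3.97, 2.14 and 5.82 TPM. For each of these genes all 4 libraries at E12.5 lay above all 4 at E15.5, and the stages were apart in this way for 47.4% of all genes. The log2 fold changes were -3.27 ± 0.17 for *Asb4* (SE, adjusted p 8.3e-07), -2.27 ± 0.22 for *Peg10* (adjusted p 2.3e-05) and -1.42 ± 0.28 for *Nap1l5* (adjusted p 0.0018). The growth factor gene *Igf2* fell by 0.92 ± 0.08, the zinc finger genes *Peg3* by 0.87 ± 0.09 and *Plagl1* by 0.82 ± 0.10, and *Slc38a4*, an amino acid transporter gene, by 0.92 ± 0.10 on the log2 scale.

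The 6 genes that rose in lung included 3 members of the *Kcnq1* domain. *Slc22a18*, which encodes a transporter, had 0.518, 0.767, 1.16 and 0.488 TPM at E12.5 and 3.32, 3.21, 5.13 and 2.36 TPM at E15.5. *Kcnq1*, which encodes a potassium channel subunit, had 2.31, 3.04, 2.19 and 2.30 TPM and 5.37, 6.15, 7.91 and 4.27 TPM. *Dlk1* had 369.8, 253, 382 and 359 TPM and 642, 621, 695 and 588 TPM. No library at E12.5 reached any library at E15.5 for these genes. Their log2 fold changes were 2.21 ± 0.33 (adjusted p 0.00033), 1.22 ± 0.20 (adjusted p 0.0007) and 0.87 ± 0.11 (adjusted p 0.00012). *Ascl2*, a transcription factor gene of the same domain, rose too by 1.11 ± 0.32, with libraries that overlapped between the stages. *H19* (0.13 ± 0.12) and *Meg3* (0.04 ± 0.09), the long non-coding RNA of the *Dlk1* domain, did not pass the test. Over the same interval the summed TPM of epithelial genes went from 733 to 6455 in wt lung. Endothelial genes went from 434 to 923 TPM with 6 of 6 called higher, smooth muscle genes from 668 to 1456 TPM with 5 of 6, and neuronal genes from 42.5 to 20.7 TPM with 6 of 8 called lower and 1 higher. The part of these lists in the changes of imprinted genes was not tested.

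In wt somites, by contrast with the lung in direction, most of the genes that changed rose with stage, though the difference between these tissues was not tested. From E10.5 to E12.5, 20 of 41 imprinted genes rose and 4 fell, against 24.1% of 19773 genes that rose and 18.4% that fell (42.6% together). All 4 genes that fell are classed as paternally expressed, while the rises were of 9 genes classed as paternally and 11 as maternally expressed. The median log2 fold change was 0.51 over the imprinted genes and -0.04 over all genes. *Phlda2*, a maternally expressed gene known to restrain growth of the placenta, had 0.561, 0.336, 0.364 and 0.395 TPM at E10.5, from 3 to 5 reads per library, and 9.92, 10.8, 13.9 and 7.67 TPM at E12.5. *Rtl1* had 3.88, 4.39, 3.83 and 4.27 TPM and 30.8, 36.9, 22.8 and 23.7 TPM. *Igf2* had 44.8, 57.5, 99.3 and 59.8 TPM and 333, 401, 494 and 459.5 TPM. The stages did not overlap for any of them, as for 56.2% of all genes. The log2 fold change was 4.55 ± 0.31 for *Phlda2* (adjusted p 2.6e-08), 2.73 ± 0.16 for *Rtl1* (adjusted p 5.3e-09), 2.71 ± 0.30 for *Slc22a18* (adjusted p 3.7e-06) and 2.64 ± 0.19 for *Igf2* (adjusted p 5.1e-08). *Cdkn1c* rose by 2.43 ± 0.14 and *Igf2r* by 1.85 ± 0.11, along with *H19* by 1.98 ± 0.12, *Plagl1* by 2.17 ± 0.10 and *Dlk1* by 1.95 ± 0.15. The log2 fold change of *Grb10* was 0.46 ± 0.09 (adjusted p 0.00072), under the 1.5-fold limit.

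The genes that fell in somites were *Nap1l5*, *Snrpn*, *Nnat* and *Mcts2*. *Snrpn*, which encodes a protein of the spliceosome, had 54.8, 52.0, 52.8 and 42.3 TPM at E10.5 and 26.5, 23.7, 32.1 and 23.5 TPM at E12.5. *Nnat* had 1241, 968, 1193 and 1327 TPM and 764, 634, 752 and 736 TPM. *Nap1l5* had 11.9, 9.54, 10.8 and 11.8 TPM and 6.82, 5.40, 5.60 and 4.44 TPM. Every library at E10.5 was above every library at E12.5. The falls were 1.01 ± 0.13, 0.78 ± 0.10 and 1.05 ± 0.16 on the log2 scale. Neuronal genes summed to 1482 TPM in the wt libraries at E10.5 and to 563 TPM at E12.5, and mesenchymal genes to 641 TPM and 6376 TPM. Skeletal muscle genes went from 349 to 3781 TPM and cartilage genes from 356 to 2972 TPM, and all 10 and all 9 of these genes were called higher, as were 5 of 6 smooth muscle genes. The part of these lists in the rises and falls of imprinted genes was not tested.

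**Figure D2:**
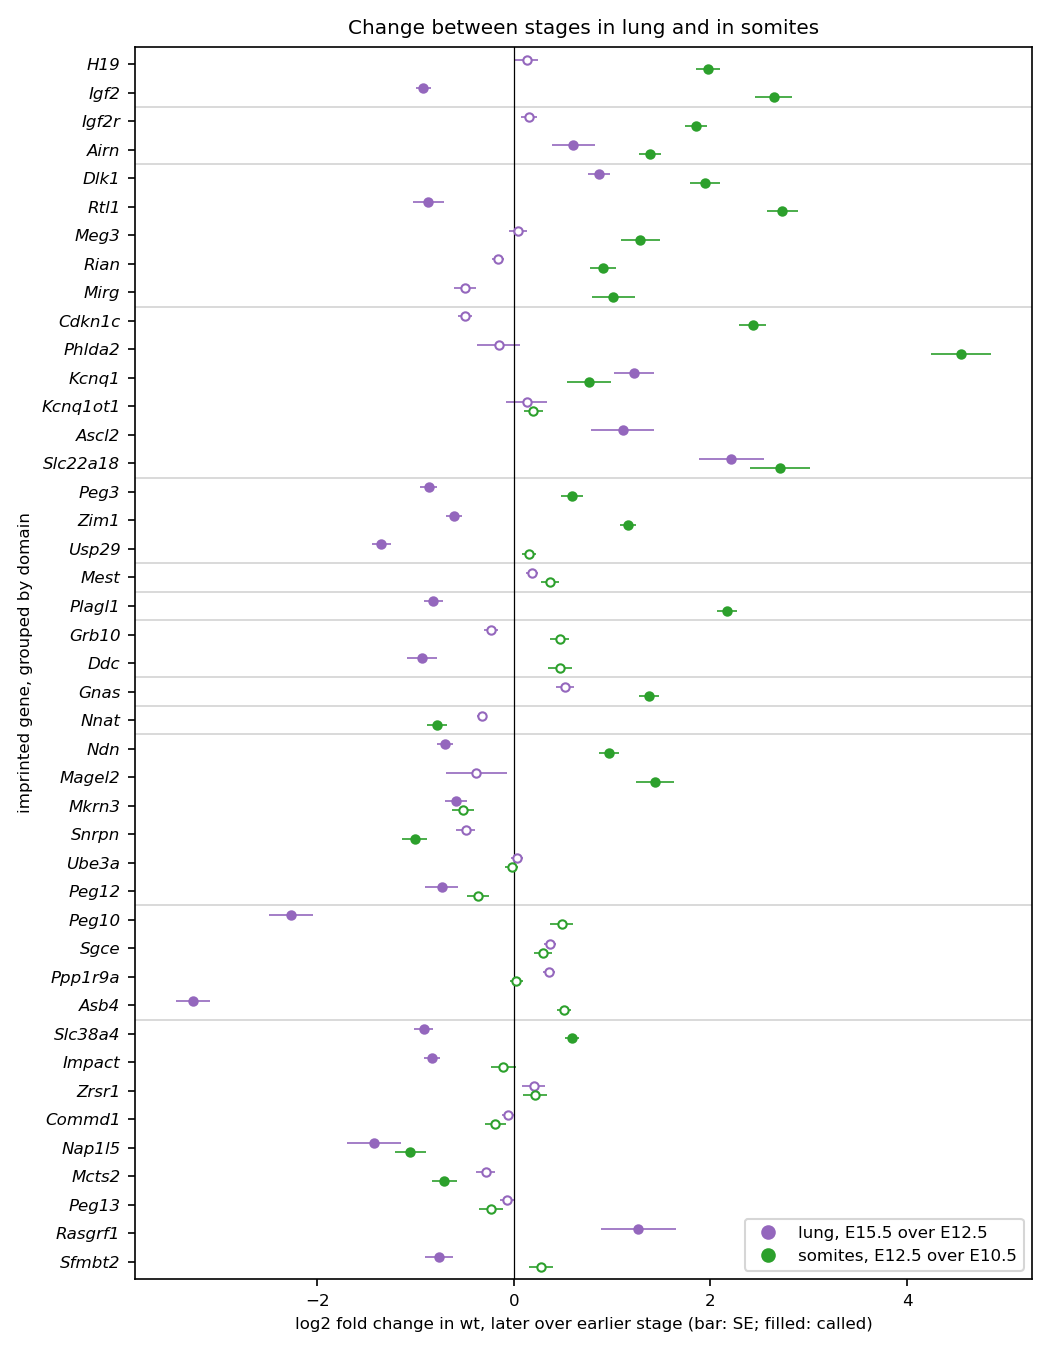
Log2 fold change with stage in wt libraries (x axis, bar SE) for each imprinted gene (y axis, by domain), in lung (purple) and somites (green), with filled points for genes called. In lung 16 genes called lie left of 0 and 6 right of it, in somites 4 and 20. *Ascl2* and *Rasgrf1* were not tested in somites.

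Among the 3 organs sampled at E15.5 in wt embryos, diaphragm had the higher level of most imprinted genes that were called. These comparisons share their wt libraries and are given side by side. In trachea over lung 17 of 43 genes were higher and 3 lower, where 20.1% and 10.1% of 19340 genes were (30.2% together). In diaphragm over lung 24 of 43 were higher and 4 lower, against 20.9% and 15.6% of 18984 genes (36.4% together). *Rasgrf1* was not tested between diaphragm and trachea. In diaphragm over trachea 22 of 42 were higher and 6 lower, against 14.1% and 18.4% of 19730 genes (32.5% together). The scaling bears on the last 2 comparisons. With library totals in place of TMM factors the median log2 fold change of all genes went from -0.01 to -0.25 for diaphragm over lung and from -0.04 to -0.26 for diaphragm over trachea, and of the imprinted genes 22 were higher and 6 lower than in lung, and 20 higher and 9 lower than in trachea. By that scaling 40.5% rather than 57.3% of all genes called between diaphragm and lung were higher in diaphragm, and 29.2% rather than 43.5% between diaphragm and trachea. Over all genes, 3190 of 18984 were then higher in diaphragm than in lung and 4690 lower. Relative to trachea, 2074 of 19730 were higher and 5026 lower. Cell type lists moved too. From wt lung to wt trachea neuronal genes went from 20.7 to 301 TPM with 10 of 10 called higher. Cardiac muscle genes went from 118 to 4851 TPM with 8 of 8, and cartilage genes from 222 to 2023 TPM with 7 of 9. All 6 endothelial genes were called lower in trachea than in lung, as they were in diaphragm. The part of these lists was not tested.

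*Rtl1*, *Peg10* and *Magel2* stood highest in diaphragm relative to both other organs. *Rtl1* had 3.38, 2.32, 2.23 and 3.46 TPM in lung, 15.8, 17.5, 16.4 and 16.7 TPM in trachea and 166, 98.2, 86.1 and 151 TPM in diaphragm. *Peg10* had 75.5, 55.1, 32.5 and 73.1 TPM, 128, 122, 76.3 and 142 TPM and 937, 1053, 866 and 1150.5 TPM in the same order. *Magel2*, of the MAGE family, had 12.6, 6.07, 3.61 and 8.86 TPM, 10.54, 13.2, 16.2 and 9.60 TPM and 86.7, 115, 105 and 104 TPM. All 4 diaphragm libraries lay far above every library of the other organs for these genes, while lung and trachea overlapped for *Magel2*. Over all genes 45% did not overlap between trachea and lung, 63.6% between diaphragm and lung and 54% between diaphragm and trachea. The log2 fold change of diaphragm over lung was 5.78 ± 0.30 for *Rtl1* (adjusted p 5.4e-07), 4.40 ± 0.27 for *Peg10* (adjusted p 1.3e-06) and 4.02 ± 0.32 for *Magel2* (adjusted p 7.7e-06). Of diaphragm over trachea it was 3.23 ± 0.24, 3.40 ± 0.20 and 3.34 ± 0.17. All 10 skeletal muscle genes of the marker list reached 1 TPM in wt diaphragm, led by *Acta1* at 12574 TPM, and their sum was 30922 TPM there, 30.03 TPM in lung and 620 TPM in trachea. In the single wt diaphragm libraries it was 41582, 25650, 20635 and 35821 TPM, which is the order of *Rtl1* in them, and its part in these differences was not tested. The genes of the *Dlk1* domain were all higher in diaphragm than in lung, by 1.89 ± 0.09 for *Dlk1*, 2.98 ± 0.14 for *Meg3*, 2.96 ± 0.13 for *Rian* and 3.11 ± 0.12 for *Mirg*, the last 2 being hosts of small RNAs. *Igf2* was higher by 1.99 ± 0.09 and *Cdkn1c* by 2.90 ± 0.08.

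The genes of the back-to-back pairs had these values in the same comparison. *Peg10* was higher in diaphragm than in lung by 4.40 ± 0.27, and *Sgce*, across the gap of 98 bases, by 0.72 ± 0.08, with 14.6, 14.7, 16.2 and 13.96 TPM in lung and 19.6, 20.2, 18.4 and 20.7 TPM in diaphragm. With library totals *Sgce* was at 0.47 and no longer called. *Peg3* was higher by 1.79 ± 0.10 and *Usp29* by 2.26 ± 0.11, with 3.08, 2.93, 2.62 and 3.55 TPM and 11.4, 12.1, 10.498 and 12.96 TPM for *Usp29*. The difference between the genes of a pair was not tested.

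Genes lower in diaphragm than in lung were *Ascl2*, *Nnat*, *Kcnq1* and *Nap1l5*, the last at -1.11 ± 0.36 with overlapping libraries and a call that was lost without diaphragm wt replicate 2 (-0.93) or lung wt replicate 1 (-0.92) or 4 (-0.98). *Nnat* had 598, 559, 605 and 596 TPM in lung, 476, 320.1, 241 and 475 TPM in trachea and 105, 171, 214 and 116 TPM in diaphragm, with no overlap between any of the organs. Its log2 fold change was -1.66 ± 0.18 for diaphragm over lung (adjusted p 5.1e-05) and -0.68 ± 0.20 for trachea over lung (adjusted p 0.017), and the latter call was lost without trachea wt replicate 2 (-0.61) or 3 (-0.50). *Ascl2* was lower than in lung by 2.19 ± 0.35 in diaphragm and 1.19 ± 0.23 in trachea. For *Kcnq1* the log2 fold change was -0.70 ± 0.20, and its call was lost without lung wt replicate 3 (-0.52). In the trachea, *Zim1*, a zinc finger gene next to *Peg3*, and *Igf2* were higher than in lung by 2.10 ± 0.21 and 1.77 ± 0.14, with 118, 232, 249 and 227 TPM of *Zim1* in trachea and 43.7, 44.7, 48.7 and 50.8 TPM in lung. *Slc22a18* was highest in trachea, at 12.4, 9.88, 12.46 and 7.50 TPM, and lower in diaphragm by 1.51 ± 0.31. *Phlda2* and *Nap1l5* were also lower in diaphragm than in trachea, by 1.27 ± 0.30 and 1.12 ± 0.26.

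**Figure D3:**
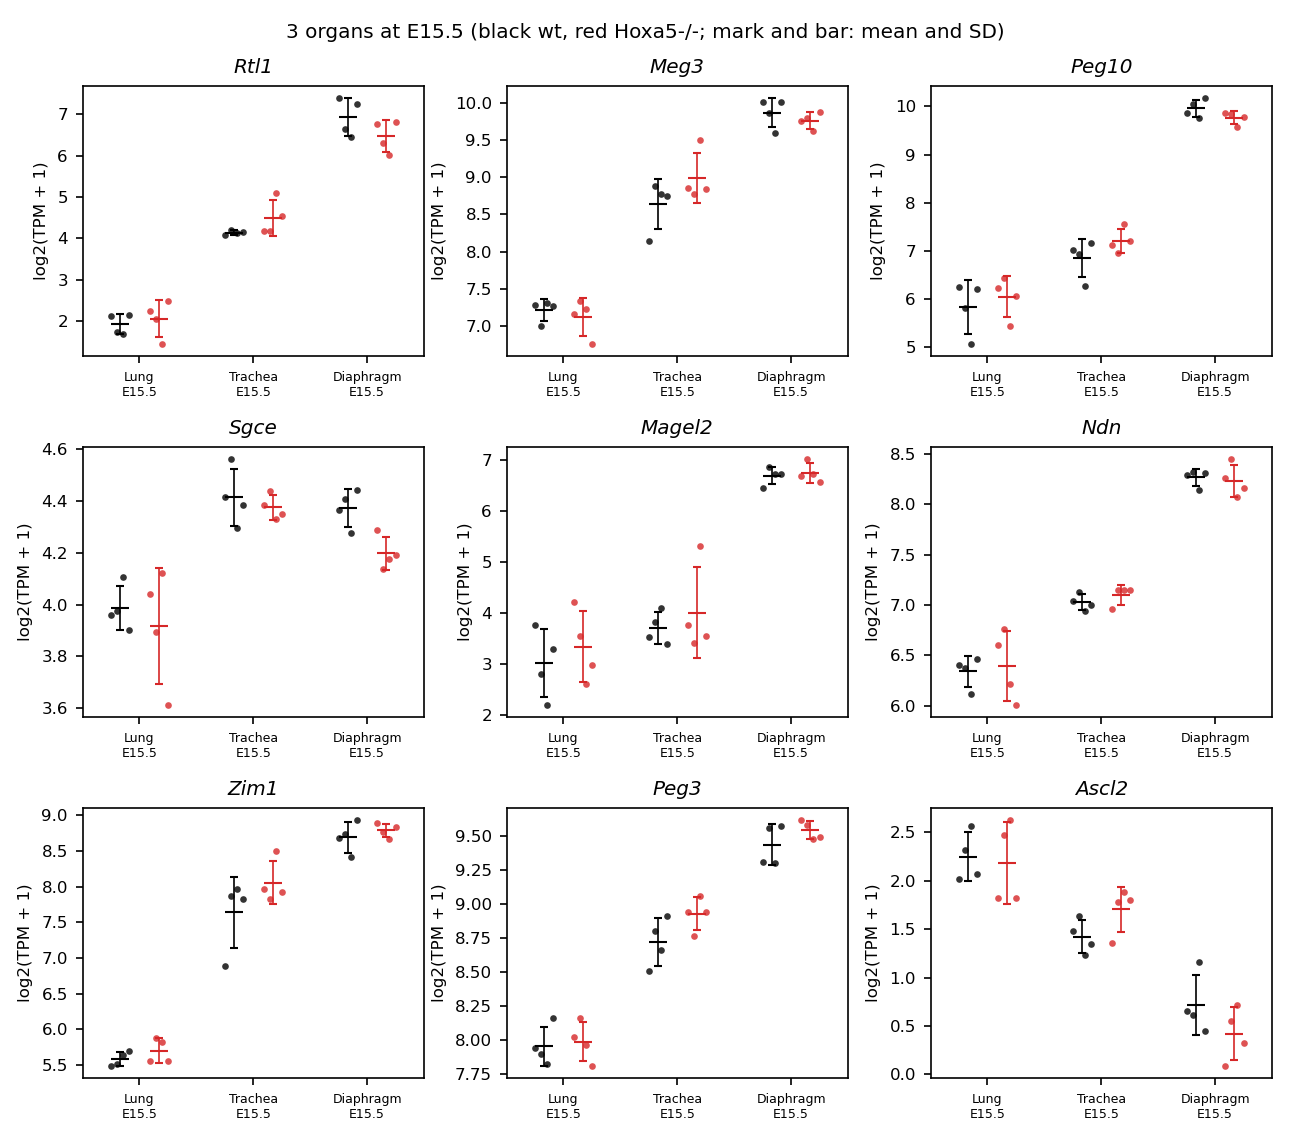
Levels of 9 imprinted genes as log2(TPM + 1) (y axis, not starting at 0) in lung, trachea and diaphragm at E15.5, 1 point per library, black for wt and red for *Hoxa5*-/-, with mean and SD. Diaphragm is highest for all of these genes but *Sgce* and *Ascl2*, and the genotypes overlap for each gene and organ shown.

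Brown adipose tissue at E18.5 had the smallest share of imprinted gene RNA. Relative to wt somites at E12.5, which share the centre but not the stage and whose libraries also entered the comparison of stages, 29 of 41 genes were lower in wt iBAT and 5 higher, while 35.3% of 19369 genes were lower and 31% higher (66.3% together). The median log2 fold change was -1.33 over the imprinted genes and -0.16 over all genes. *Asb4* had 121, 116, 126 and 122 TPM in somites and 2.68, 3.02, 3.07, 2.51 and 2.52 TPM in iBAT. *Peg10* had 316, 346, 359 and 366 TPM and 13.1, 10.1, 10.9, 9.98 and 10.4 TPM. *Phlda2* had 9.92, 10.8, 13.9 and 7.67 TPM in somites, from 63 to 110 reads per library, and 1 read in 1 of the 5 iBAT libraries. Every somite library was above every iBAT library for all of these genes. The log2 fold changes of *Asb4* and *Peg10* were -4.24 ± 0.10 (adjusted p 1.5e-14) and -3.78 ± 0.09 (adjusted p 2.8e-14), and *Nnat*, *Peg12*, *Usp29* and *Igf2* were lower by 3.72, 3.36, 3.22 and 2.94.

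*Gnas* and *Kcnq1* went the other way. *Gnas*, which encodes the stimulatory G protein alpha subunit, had 49.1, 56.6, 45.4 and 44.6 TPM in somites and 69.3, 56.9, 71.9, 109.1 and 97.9 TPM in iBAT. *Kcnq1* had 1.07, 1.52, 1.31 and 1.43 TPM and 2.13, 2.06, 1.79, 2.48 and 2.08 TPM. Neither gene's groups overlapped, as for 81.4% of all genes, and the log2 fold changes were 1.93 ± 0.16 (adjusted p 2e-08) and 1.86 ± 0.19 (adjusted p 2.5e-07), or 1.28 and 1.22 with library totals. *Ube3a*, *Commd1* and *Mcts2* were called higher with TMM factors, but their mean TPM was lower in iBAT, and with library totals 2 genes were higher and 34 lower. That scaling moved the median of all genes from -0.16 to -0.80 and the share of higher genes among all genes called from 46.7% to 28.8%. Over all genes, 4102 of 19369 were then higher and 10160 lower. *Dlk1* had a mean of 822 TPM in somites and 322 TPM in iBAT, and its call rests on the scaling: at -0.15 ± 0.11 it did not pass the test with TMM factors, and with library totals it was called lower at -0.79 (adjusted p 2e-05). The 8 brown adipocyte genes, all at 1 TPM or more in wt iBAT and led by *Fabp4* at 6258 TPM, summed to 18060 TPM there and to 13.9 TPM in wt somites at E12.5. Neuronal genes went from 563 TPM in wt somites to 2.64 TPM in iBAT with 10 of 10 called lower. Cartilage genes went from 2972 to 4.79 TPM with 9 of 9. Of the epithelial genes 7 of 8 were called lower, and of the skeletal muscle genes 6 of 10 lower and 2 higher. Endothelial genes went the other way, with 5 of 6 called higher. The part of these lists in the differences was not tested.

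Across the 7 wt contexts, genes of a domain often followed each other. Correlations of log2(mean TPM + 1) are given as a description, over 7 points that come from 2 centres and share the low iBAT values. The median Pearson's r was 0.66 over 52 pairs of genes in a domain and 0.53 over 851 pairs in different domains. *Rian* and *Mirg* had r = 0.98, as had *Meg3* and *Rian*, *Peg3* and *Usp29* had 0.98, *Igf2r* and its antisense RNA *Airn* 0.95, and *H19* and *Igf2* 0.94. *Peg10* and *Asb4* had 0.94, while *Peg10* and its closest neighbour *Sgce* had 0.73. In the *Kcnq1* domain *Kcnq1* and its antisense RNA *Kcnq1ot1* had r = -0.60, and in the *Snrpn* domain *Magel2* and *Snrpn* had -0.41. On this scale the closest pair of all was in different domains, *Grb10* and *Slc38a4* with r = 0.985. With 0.1 in place of 1 added to the TPM, *Peg3* and *Usp29* of the same domain stood above that pair, at 0.987 against 0.986.

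Between genotypes no imprinted gene was called by edgeR in any of the 7 contexts. The number tested, and the share of all genes called in the same comparison, were 43 and 0.0156% in trachea, 41 and 0.0798% in lung at E12.5, 43 and 0.124% in lung at E15.5, 41 and 0.594% in diaphragm, 38 and 0.0215% in somites at E10.5, 41 and 0.00529% in somites at E12.5, and 37 and 0.00657% in iBAT. An unadjusted p under 0.05 was reached by 6, 5, 3, 3, 5, 0 and 0 imprinted genes in that order. These were 13.95, 12.2, 6.98, 7.32, 13.2, 0 and 0% of those tested. The shares of all genes were 6.7, 8.01, 6.32, 13.03, 12.7, 3.24 and 2.47%. DESeq2 called 1, *Phlda2* in trachea, and no imprinted gene in the other 6 contexts. On chromosome 6, which carries *Hoxa5*, lie 6 of the 43 genes, the nearest being *Nap1l5* at 6.70 Mb, and none of these 6 was called by either tool. Over all genes DESeq2 called 0.271% in trachea, 0.462% in lung at E12.5, 0.467% in lung at E15.5, 2.25% in diaphragm, 0.0969% in somites at E10.5, 0.0106% in those at E12.5, and 0.0263% in iBAT. At such low shares of calls over all genes, a count of 0 among about 40 genes is no result about imprinted genes. The median of the absolute log2 fold changes was 0.18 over the imprinted genes and 0.12 over all genes in trachea, and 0.05 and 0.07 in somites at E12.5.

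**Figure D4:**
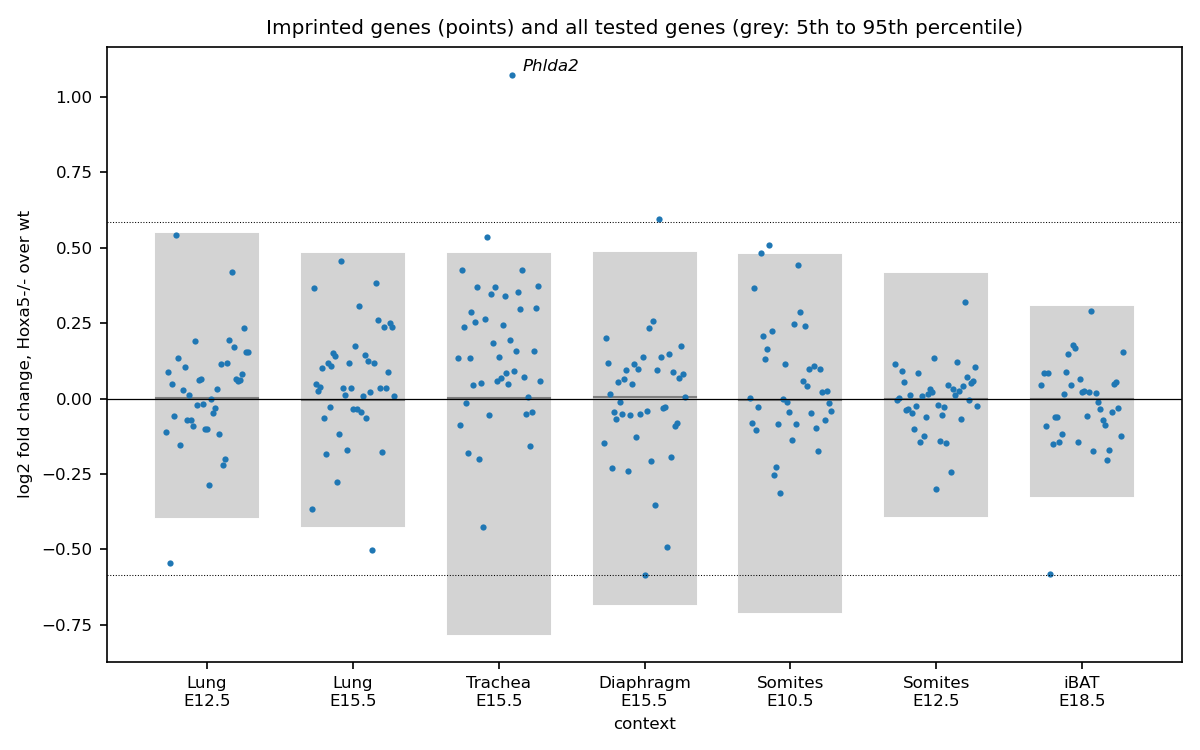
Log2 fold change of *Hoxa5*-/- over wt (y axis) of each imprinted gene tested (points) in the 7 contexts (x axis), with the 5th to 95th percentile of all genes tested in grey and the limits of a 1.5-fold change dotted. The point farthest from 0 is *Phlda2* in trachea at 1.07, and the trachea points lie mostly above 0.

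In trachea *Phlda2* had 5.05, 4.99, 5.76 and 5.09 TPM in the wt libraries and 11.7, 11.1, 8.51 and 13.04 TPM in the mutants. Every mutant library was above every wt library, from 34 to 68 reads in wt and from 79 to 102 reads in mutants. The log2 fold change was 1.07 ± 0.17 (SE) with an adjusted p of 0.28 by edgeR and 0.0012 by DESeq2. Of the 43 genes 34 had a higher fitted level in the mutants, 79.1% against 50.6% of all genes, and the median log2 fold change was 0.14 against 0.00. Leaving out wt replicate 4 of trachea moved that median to 0.22 with 35 of 43 positive, and leaving out wt replicate 1 moved it to 0.08 with 30 of 43. Wt replicate 1 was the lowest of the 8 trachea libraries for 13 of the 43 genes in TPM and for 15 with TMM factors, with 13.8 TPM of *Airn* against 42.8 to 65.6 TPM in the others, 0.723 TPM of *Kcnq1ot1* against 2.52 to 3.56 TPM and 9.27 TPM of *Ube3a* against 17.2 to 20.5 TPM. Leaving out wt replicate 1 and mutant replicate 3 together, chosen after the values were seen, moved it to 0.06 with 27 of 43. In lung at E15.5, for comparison, 30 of 43 genes had a higher fitted level in the mutants, 69.8% against 47.9% of all genes, with medians of 0.04 and -0.01. The trachea groups did not overlap in TPM for 6 of the 43 genes, and over all genes for 3.74%. Besides *Phlda2* these were *H19*, *Cdkn1c*, *Gnas*, *Usp29* and *Mirg*. *H19* had 18271, 16188, 14864 and 16407 TPM in wt and 20859, 18364, 19312 and 20235 TPM in mutants, and *Cdkn1c* had 892, 827, 881 and 845 TPM and 941, 976, 1152 and 1016 TPM. Their log2 fold changes, 0.25 ± 0.09 (adjusted p 0.68) and 0.24 ± 0.07 (adjusted p 0.68), did not pass the test. The 8 cardiac muscle genes summed to 4285, 6213, 3369 and 5537 TPM in the wt trachea libraries and to 2568, 3275, 3078 and 1677 TPM in the mutants, so that this list too did not overlap between the genotypes. Its most abundant gene was *Myl7*, an atrial myosin light chain, and none of the 8 was at 0 TPM. Skeletal muscle genes, given above, overlapped between them. The part of either list in these differences was not tested.

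In somites at E10.5 *Dlk1* and *Peg10* did not overlap between the genotypes, where 7.37% of all genes did not, and neither was called. *Igf2* had 44.8, 57.5, 99.3 and 59.8 TPM in the 4 wt libraries and 109.9, 98.3 and 78.4 TPM in the 3 mutants. *Dlk1* had 147, 214, 272 and 187 TPM and 297, 308 and 279.5 TPM. *Peg10* had 186, 231, 311 and 224 TPM and 331, 344 and 323 TPM. Wt replicate 3 was the highest of the wt libraries for all of them, and for *Igf2* it lay within the range of the mutants. The log2 fold changes were 0.51 ± 0.19, 0.48 ± 0.15 and 0.44 ± 0.13, each with an adjusted p of 0.39. Without that replicate *Igf2* (0.75 ± 0.12, adjusted p 0.015) and *Dlk1* (0.62 ± 0.12, adjusted p 0.017) were called, in a fit that called 386 of 18664 genes rather than 4 of 18573. Wt replicate 3 had the highest wt value in 14 of the 20 imprinted genes that rise from E10.5 to E12.5, and wt replicate 1 the lowest in 11. Among the mutants, replicate 1 was the highest in 17 and replicate 3 the lowest in 16. Skeletal muscle genes summed to 324, 241, 435 and 393 TPM in the wt libraries and 532, 465 and 376 TPM in the mutants. Red blood cell genes summed to 32367, 18877, 15881 and 32294 TPM in the wt libraries, the inverse of the order of *Dlk1* and *Peg10* in them. In the mutants red blood cell genes summed to 18888, 19667 and 15730 TPM, where the order was the same as that of *Dlk1* and *Peg10*. Epithelial genes (61.6 to 102 TPM in wt, 106 to 115 TPM in mutants) and endothelial genes (167 to 199 and 203 to 220 TPM) did not overlap between the genotypes. The part of these lists was not tested.

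In lung at E12.5 *Rtl1* had 5.45, 4.76, 5.28 and 4.83 TPM in wt and 7.01, 7.48, 6.60 and 5.79 TPM in mutants, which did not overlap, with a log2 fold change of 0.42 ± 0.12 (adjusted p 0.36). It was the only 1 of 41 imprinted genes without overlap there, and 4.09% of all genes had none. In that context mutant replicate 1 had 149631 TPM of red blood cell genes and the other libraries 20512 to 40524 TPM, and among the mutants this library had the lowest TPM of *Igf2*, *Peg10* and *Nnat*. It was the lowest of the 8 libraries for 22 of the 43 imprinted genes in TPM. With TMM factors it was the lowest for 10 and the highest for 6, and *Nnat* was then lowest in mutant replicate 4. Cartilage genes summed to 218 to 236 TPM in the wt libraries and to 267 to 290.2 TPM in the mutants, and the part of neither list was tested. In lung at E15.5, where no imprinted gene and 2.96% of all genes had groups without overlap, the smallest adjusted p was 0.41, for *Airn* at -0.37 ± 0.10. Mutant replicate 4 was the lowest of the 8 libraries there for *Dlk1*, *Igf2*, *H19* and *Gnas*, with 644, 630.5, 680.2 and 364 TPM of *Dlk1* in the mutants. It was the lowest in some other gene lists in TPM as well. It had 470 TPM of endothelial genes against 715 to 1013 TPM in the other 7 libraries. IGF axis genes were at 1104 TPM against 1460 to 1673 TPM and mesenchymal genes at 2243 TPM against 2732 to 3222 TPM. In other lists it was the highest, with 513 TPM of cardiac muscle genes against 38.6 to 242 TPM. Neuronal genes were at 38.6 TPM against 17.4 to 26.04 TPM and skeletal muscle genes at 52.5 TPM against 22.4 to 43.7 TPM. This library also had the smallest depth of this context, 20692978 counted reads. The scale decides how far the low values of imprinted genes go. In TPM the library was the lowest of the 8 for 29 of the 43 imprinted genes. With TMM factors it was the lowest for 6, among them *Dlk1*, *Igf2*, *H19* and *Gnas*, and the highest for 11, among them *Peg3*, *Rian* and *Peg10*. Endothelial genes did not overlap between the genotypes there, with 847 to 1013 TPM in wt and 470 to 794 TPM in mutants. The part of these differences was not tested. In diaphragm *Peg13*, a long non-coding RNA within *Trappc9*, had 11.9, 12.55, 11.7 and 11.4 TPM in wt and 9.72, 8.86, 8.24 and 10.6 TPM in mutants. The groups of *Peg13* did not overlap, nor did those of *Peg12*, as for 6.87% of all genes. For *Peg13* the log2 fold change was -0.35 ± 0.10, with an adjusted p of 0.18 by edgeR and 0.049 by DESeq2, below the 1.5-fold limit. More than 20% of its exon bases are shared with *Trappc9*. Some cell type lists moved with genotype in diaphragm too. Neuronal genes summed to 27.5 to 55.0 TPM in wt and 12.9 to 16.01 TPM in mutants, with 3 of 7 called lower, and 3 of 6 smooth muscle genes were called lower, against 0.594% of all genes called in either direction. Endothelial genes were lower (283 to 349 TPM in wt, 209 to 278 TPM in mutants) and somite genes higher (149 to 168 and 176 to 205 TPM), both without overlap. The part of these lists was not tested. In somites at E12.5 and in iBAT the smallest adjusted p of any imprinted gene was 0.999 and 0.9999, and the groups of no imprinted gene were apart, against 2.51% and 0.316% of all genes.

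**Figure D5:**
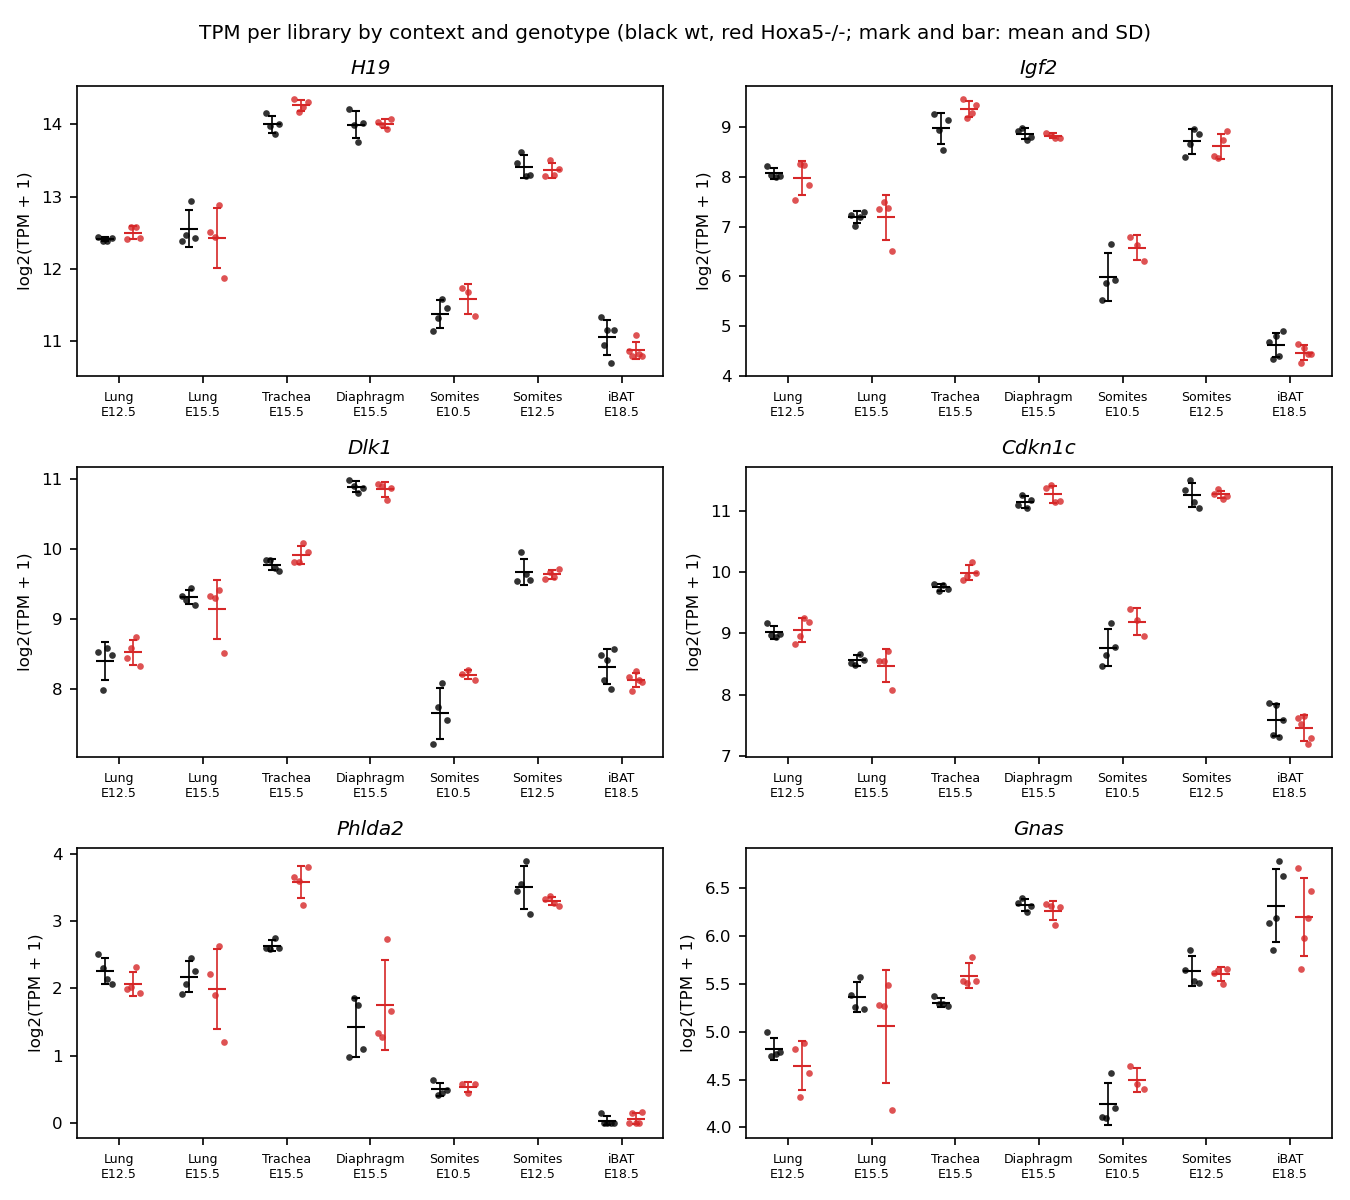
Levels of 6 imprinted genes as log2(TPM + 1) (y axis, not starting at 0) in the 7 contexts, 1 point per library, black for wt and red for *Hoxa5*-/-, with mean and SD. The points are spread more widely between contexts than between genotypes, which are apart for *Phlda2*, *H19*, *Cdkn1c* and *Gnas* in trachea and for *Dlk1* in somites at E10.5.

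Whether the effect of the genotype differed between contexts was tested as an interaction, called at an adjusted p under 0.05. No imprinted gene was called by edgeR in any of the 6 interactions. Over all genes 0.0267% were called for lung at E15.5 against E12.5, 0.0147% for somites at E12.5 against E10.5, 0.00502% for trachea against lung, 0.73% for diaphragm against lung, 0.439% for diaphragm against trachea, and 0% for iBAT against somites at E12.5. The imprinted genes with an unadjusted p under 0.05 numbered 1, 5, 5, 3, 7 and 0, and DESeq2 called none. In the same order these were 2.33, 12.2, 11.6, 6.98, 16.3 and 0% of those tested, against 5.25, 14.3, 5.04, 8.46, 9.07 and 2.57% of all genes. In somites *Igf2*, *Dlk1* and *Peg10* were called when no gene was left out for a low level, with the effect at E12.5 lower than at E10.5 by 0.59, 0.50 and 0.48. Without wt replicate 3 of E10.5, 6 were called, these 3 with *Cdkn1c*, *Ndn* and *Sgce*. The share of all genes called in these fits of the interaction is not given here, so the counts are no result about imprinted genes. In the genotype test at E10.5 the same settings raised the calls over all genes from 4 of 18573 to 147 of 36821 and 386 of 18664.

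Partners of these genes were followed in 3 further lists. None of their genes was called between genotypes in any context, with 10 genes of the machinery that sets and reads imprints, 11 of the IGF axis and 17 to 22 other imprinted genes tested, at the low shares of all genes given above. In the wt comparisons the counts of these lists are again set beside the shares of all genes. In wt somites 13 of 22 other imprinted genes rose from E10.5 to E12.5 and 2 fell, where 24.1% of all genes rose and 18.4% fell. *Dcn*, which encodes the matrix protein decorin, rose by 3.59 ± 0.16 and *Gatm*, a creatine synthesis gene, by 2.07 ± 0.10. In the IGF axis 5 of 11 rose there and 1 fell, against the same 24.1% and 18.4%. *Igf1* rose by 2.64 ± 0.12 and *Igfbp5*, a binding protein gene, by 2.78 ± 0.16, while *Igf2bp1*, whose protein binds *Igf2* messenger RNA, fell by 1.04 ± 0.12. In lung 5 of the 11 fell from E12.5 to E15.5 and 1 rose, where 9.15% of all genes fell and 15.4% rose. *Igf2bp1* fell by 1.68 ± 0.09, *Igf2bp2* by 1.42 ± 0.09 and *Igf2bp3* by 1.05 ± 0.06. Of the other imprinted genes, 5 of 19 rose in lung and 3 fell, against these shares.

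In trachea over lung 10 of 20 other imprinted genes and 4 of 11 IGF axis genes were higher and none lower, and in diaphragm over lung 10 of 20 were higher and 1 lower in the former list and 5 of 11 higher in the latter. Of all genes 20.1% were higher in trachea than in lung and 20.9% in diaphragm than in lung. In either direction 5838 of 19340 genes were called in trachea over lung and 6915 of 18984 in diaphragm over lung. In diaphragm over trachea the counts were 6 higher and 4 lower of 21, and 5 higher and 1 lower of 11, against 14.1% higher and 18.4% lower of all genes. *Gatm* had log2 fold changes of 5.51 ± 0.20 for diaphragm over lung and 4.29 ± 0.21 for diaphragm over trachea. In iBAT over somites at E12.5, 7 of 23 other imprinted genes were higher and 13 lower, and 2 of 11 IGF axis genes higher and 9 lower, where 31% of all genes were higher and 35.3% lower. The binding protein gene *Igfbp2* was lower by 4.66 ± 0.10 and *Igfbp6* higher by 3.11 ± 0.23.

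Of the machinery that maintains imprints, 8 of 10 genes tested were lower in wt iBAT than in somites at E12.5 and none higher, against 35.3% lower and 31% higher of all genes. Among them were *Dnmt1*, the maintenance methyltransferase gene, lower by 2.16 ± 0.09, its partner *Uhrf1* by 1.67 ± 0.09, *Trim28*, a corepressor gene, by 2.13 ± 0.08 and *Zfp57*, whose zinc finger protein binds methylated imprinting control regions, by 3.83 ± 0.13. In trachea 5 of 10 were lower than in lung and in diaphragm 3 of 10, where 10.1% and 15.6% of all genes were, with *Dnmt1*, *Dnmt3b* and *Uhrf1* in both counts. None was called between diaphragm and trachea, where 6412 of 19730 genes were called. In somites 3 of 10 fell and 1 rose from E10.5 to E12.5, against 18.4% and 24.1% of all genes, the rise being *Dnmt3a* by 0.79 ± 0.11. Between the stages of lung none was called, where 4466 of 18158 genes were called.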

How the data were processed

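RNA-seq was performed on wt and *Hoxa5*-/- embryonic tissues, and the tables of the 32 libraries of trachea, lung and diaphragm and of the 25 libraries of somites and iBAT were analysed separately, since they come from different centres. The counts per gene were made by the authors with featureCounts 2.0.3 on a GENCODE M32 annotation that they had curated for *Hox* genes, after trimming in Trim Galore 0.6.5 and alignment to GRCm39 in STAR 2.7.9a. The TPM values, deposited beside the counts, were computed by the authors from those counts and the exon lengths. All value columns matched a sample. Gene names were spelled differently in 2573 cases between the tables, and genes were joined by identifier.

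The 43 members and all gene lists were chosen with earlier results of these data known. The counts were tested with edgeR 4.0.16 (R 4.3.3, TMM factors, quasi-likelihood F test) within each context between genotypes, in 6 comparisons of wt contexts and in 6 interactions. A gene was tested at a mean of 1 TPM or more in a group compared, p-values were adjusted by Benjamini-Hochberg over all genes tested, and the limits were an adjusted p of 0.05 and a 1.5-fold change (none for interactions). Described in full were members called between genotypes by edgeR or DESeq2, the 3 most abundant members of each wt context, up to 3 rises and 3 falls of largest fold change without overlap in each wt comparison, and members with a called interaction. Other genes are given as examples of their lists and were chosen after their values were seen. No fold change is given for *Phlda2* in iBAT, where it had 1 read in 1 of 5 libraries.

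Alternatives were DESeq2 1.42.0, its size factors in edgeR, a minimum of 10 counts in place of TPM, no filter, the replicate number as a block, a single fit per table, no fold-change minimum and leaving out each library in turn. Library totals in place of TMM factors, TMM-scaled counts in place of TPM for levels, the unshared *Igf2* bases, and leaving out 2 trachea or 3 diaphragm libraries were added after seeing the data. Replicate numbers were taken to pair libraries where the deviations from the group means correlated at over 0.1 in every pair. This held between genotypes in iBAT (r from 0.145 to 0.467), where paired library names also share their leading number, and between wt trachea and lung at E15.5 (r from 0.298 to 0.622). The fits were tested on simulated data with 50 genes changed at each of several folds. Between genotypes 10 (trachea) to 23 (iBAT) of the 50 changed 1.5-fold, at the limit itself, were called. Of the 50 changed 2-fold, 34 (trachea) to 50 (iBAT) were called. In the wt comparisons 6 (diaphragm over trachea) to 26 (iBAT over somites) of the 50 changed 1.5-fold were called. Sequences came from the RefSeq microRNA table and the GRCm39 genome, and exon positions from the deposited annotation. Summaries and figures were made with Python 3.11.15, pandas 2.3.3, numpy 2.4.6 and matplotlib 3.10.9.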

Additional observations from a re-analysis of the deposited data

Results flagged for a closer look

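In 14 of 231 groups of 4 or 5 libraries, over the 19 genes named by the rule, 1 library stood apart from the rest in TPM, which chance alone gives in about 1 group in 20. Trachea mutant replicate 3 stood apart in 3 genes, with 39.0 TPM of *Magel2* (others 9.68 to 12.7), 362 TPM of *Zim1* (others 227 to 249.5) and 54.1 TPM of *Gnas* (others 44.5 to 45.1). This library also had 4648 TPM of skeletal muscle genes and 5497 TPM of cartilage genes, the highest sums of the trachea, whose part was not tested. Trachea wt replicate 1 had 118 TPM of *Zim1*, below the other wt libraries at 227 to 249, and was the lowest of the 8 trachea libraries for 13 of the 43 imprinted genes in TPM, *Airn*, *Kcnq1ot1* and *Ube3a* among them. Trachea wt replicate 3 had 5.76 TPM of *Phlda2*, above the others at 4.99 to 5.09.

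In lung at E12.5, wt replicate 4 had 3.15 TPM of *Ascl2* (others 1.17 to 1.42), wt replicate 1 had 297 TPM of *Igf2* (others 255 to 260.2) and wt replicate 2 had 3.04 TPM of *Kcnq1* (others 2.19 to 2.31). In lung at E15.5, mutant replicate 4 had 364 TPM of *Dlk1* (others 630.5 to 680.2) and wt replicate 3 had 7871 TPM of *H19* (others 5330 to 5682). In diaphragm, mutant replicate 3, which also had the most hepatocyte RNA, had 68.4 TPM of *Gnas* (others 77.96 to 79.5). In iBAT, mutant replicate 2 had 37.8 TPM of *Magel2* (others 10.53 to 15.9) and 15.03 TPM of *Peg10* (others 6.82 to 8.97), and mutant replicate 3 had 2167 TPM of *H19* (others 1767 to 1854).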

How the results depend on the processing

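No log2 fold change of a gene in the comparison it was named for changed sign under any alternative run. The order of mean *Igf2* and *Igf2r* was turned in 4 contexts by the unshared bases, and the sign of 1 correlation by the pseudocount, as given below. Between genotypes the count of imprinted genes called was 0 in each context under every alternative except DESeq2 in trachea, which called 1 (*Phlda2*), and leaving out libraries of somites at E10.5, which gave 0 to 2, the 2 (*Igf2* and *Dlk1*) without wt replicate 3. In the latter context the count over all genes moved from 4 to 18 with DESeq2, 147 with no filter, 28 with 1 fit for the table, 0 with the replicate block and 386 without wt replicate 3. For the interaction in somites the count of imprinted genes was 3 with no filter and 0 to 6 without a library, and for diaphragm against lung it was 1 with the replicate block, *Slc38a4* at -0.33 (adjusted p 0.039 by edgeR). Leaving out 3 diaphragm libraries with the most hepatocyte RNA, and 2 trachea libraries, left 0 imprinted genes called in each. The cause was not tested for any of these.

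In the comparisons of wt contexts, leaving out a library gave counts of 18 to 21 in lung (22 with all libraries), 22 to 24 in somites (24), 19 to 22 in trachea over lung (20), 27 to 28 in diaphragm over lung (28), 26 to 28 in diaphragm over trachea (28) and 34 in iBAT over somites (34). With no fold-change minimum they were 32, 32, 23, 33, 31 and 37. The shares of all genes called in these fits are not given here, so the counts are no result about imprinted genes. For the genes named by the rule, in the comparison that named them, 527 values stayed on their side of the limits, 1 was newly called and 3 were no longer called, and these 4 are given with their comparisons. Other members, or the same ones in other comparisons, moved too. Besides *Igf2*, *Dlk1*, *Nap1l5* and *Sgce* as given, library totals ended the calls of *Airn* in diaphragm over lung and of *Grb10* and *Impact* in diaphragm over trachea, and newly called *Phlda2* and *Peg13* in the former, *Snrpn*, *Kcnq1* and *Peg13* in the latter, and *Sgce*, *Ndn*, *Zrsr1* and *Peg13*, with *Dlk1*, as lower in iBAT. *Mkrn3* in lung and *Peg3* and *Slc38a4* in somites fell below the 1.5-fold limit with library totals. The replicate block changed no other call in the contexts where the numbers paired the libraries, where it gave 0 in iBAT and 20 in trachea over lung. Elsewhere the libraries share only a number, not every library deviated most like its own number, and the block gave 27 rather than 28 in diaphragm over trachea and ended the call of *Hoxa5* in somites at E10.5 (-0.96, adjusted p 0.69 by edgeR). Of 52 correlations under a pseudocount of 0.1 in place of 1, 3 moved, all with the low *Ascl2*: from -0.05 to 0.11 with *Cdkn1c*, from 0.54 to 0.73 with *Phlda2* and from -0.29 to -0.18 with *Kcnq1ot1*.

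The groups held 3 to 5 libraries, and members near or below 1 TPM in a context, such as *Ascl2* and *Phlda2*, rest on few reads there. The parental copy was not measured, libraries of the separate centres were not tested against each other, and strand use in counting is not given in the sources used here.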

Other observations

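In somites at E12.5, replicates 1 and 2 of either genotype had more RNA of the *Dlk1* domain's long non-coding genes than replicates 3 and 4. *Meg3* had 440, 492, 265 and 238 TPM in wt and 442, 478, 241 and 285 TPM in *Hoxa5*-/- libraries. *Mirg* had 44.4, 47.5, 23.5 and 21.4 TPM in wt and 44.9, 45.6, 22.5 and 25.4 TPM in mutants. *Rtl1* in the same domain had 30.8, 36.9, 22.8 and 23.7 TPM and 31.4, 38.4, 21.7 and 24.4 TPM. The same replicates had the larger sums of skeletal muscle genes, 3867, 4718, 3449 and 3089 TPM in wt and 4490, 4485, 3349 and 3520 TPM in mutants, whose part was not tested. *Dlk1* itself, at 747, 990, 797 and 752 TPM in wt, did not show this split.

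In diaphragm *Rtl1* had 108, 78.3, 63.9 and 111 TPM in the mutants, where skeletal muscle genes summed to 29201, 23475, 16884 and 29930 TPM. As in the wt libraries, the order of *Rtl1* was that of the muscle genes. In trachea, wt replicate 1 had 282 TPM of *Meg3* against 473, 438 and 429 TPM in the other wt libraries, and mutant replicate 3 had 723 TPM against 461, 436 and 456 TPM in the other mutants. Both were the libraries with the most skeletal muscle RNA of their genotype, and *Meg3* stood at opposite ends in them.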
